A study of Rattus norvegicus with 50 samples.

Results

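A set of 6 genes encoding immediate early and stress transcription factors, Fos, Jun, Junb, Egr1, Atf3 and Myc, was followed through the cortex and the medulla of the kidney in ZSF1 rats. The rule that picked them lists their Ensembl identifiers. All 6 were present among the 32545 gene identifiers of the expression table, and all 6 passed the filter on low values in both tissues. Atf3 did so only through the obese groups, since too few of its lean libraries reached 1 FPKM. The samples were lean ZSF1 rats given vehicle and obese ZSF1 rats treated with vehicle, with 10 mpk enalapril, or with MK-8722 in doses of 1 mpk or 10 mpk. Each of these 5 treatments was represented by 5 libraries of cortex and 5 of medulla, 50 libraries in all. Treatment lasted 28 weeks according to the labels, which also list an age of 20 weeks without saying to which time point it refers. The ZSF1 rat is a hybrid strain whose obese animals become diabetic and hypertensive and develop kidney disease, while their lean littermates do not become obese. Enalapril inhibits angiotensin-converting enzyme, and MK-8722 activates AMP-activated protein kinase; the study compared the 2 drugs in this model of diabetic nephropathy. Bulk RNA of flash-frozen tissue was sequenced, so that fewer cells of a type and less RNA per cell cannot be told apart. The labels do not say which libraries came from the same animal, and the p-values therefore measure the spread between these libraries.

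Immediate early genes are transcribed within minutes of a growth factor, cytokine, calcium or stress signal, from promoters already occupied by factors such as the serum response factor and the cAMP response element binding protein. Fos, Jun and Junb proteins pair through leucine zippers to form the AP-1 transcription factor, and Egr1 is a zinc finger factor switched on by the same signals. Atf3 is a stress-inducible member of the ATF/CREB family that is raised in injured kidney tubules, and Myc drives genes of growth and ribosome synthesis.

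Promoters from the RefSeq table of assembly GRCr8 were at hand for 2 of the 6 genes, Egr1 and Junb, and are shown because Egr1 and Junb were among the genes whose levels moved most closely together from library to library. Each runs from 250 bases before the transcription start to 50 bases after it, on the plus strand, and capitals mark matches to the CArG box, the site of the serum response factor, and to TGACGT, the core of the cAMP response element, searched on both strands. The Egr1 promoter lies at chr18:26736828-26737127 and the Junb promoter at chr19:40080876-40081175.
Egr1: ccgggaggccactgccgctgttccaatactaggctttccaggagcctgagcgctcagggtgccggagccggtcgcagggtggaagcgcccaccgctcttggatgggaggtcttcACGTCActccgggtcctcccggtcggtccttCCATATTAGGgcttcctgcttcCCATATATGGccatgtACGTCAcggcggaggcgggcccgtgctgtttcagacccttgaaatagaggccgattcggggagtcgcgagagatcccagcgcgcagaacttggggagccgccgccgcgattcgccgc
Junb: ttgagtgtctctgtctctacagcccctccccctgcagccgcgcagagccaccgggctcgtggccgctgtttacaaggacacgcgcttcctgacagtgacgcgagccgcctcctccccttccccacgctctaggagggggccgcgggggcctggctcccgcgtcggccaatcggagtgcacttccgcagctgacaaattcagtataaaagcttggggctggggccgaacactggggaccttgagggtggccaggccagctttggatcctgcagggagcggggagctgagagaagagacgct
In the Egr1 promoter, 2 CArG boxes lay at positions -105 to -96 and -83 to -74 from the start, and both read as a match on either strand. TGACGT was matched on the minus strand, as ACGTCA on the strand shown, at -136 to -131 and -67 to -62, and no 2 of these matches overlapped. A CArG box was present in 1.64% and TGACGT in 7.94% of all 33469 promoters of that length. The Egr1 window also held CCAAT at -228 to -224. The Junb window held no match to the CArG box or TGACGT, nor to the AP-1 site TGACTCA (4.63% of promoters) or the GC box GGGCGG (33.1%). It held CCAAT at -85 to -81 and TATAAA at -49 to -44, found in 37.5% and 14.2% of promoters. These are matches of letters only, and the expression data do not say which factors were bound.

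Expression is given as FPKM, fragments scaled by transcript length and by the number of fragments in the library, as the authors deposited it. A higher FPKM means a larger share of the library, and a gene's FPKM can rise because other transcripts take up less of it. The 6 most abundant gene identifiers held from 39.1% to 66.2% of a library's summed FPKM, and the median log2 fold change of all tested genes between obese and lean vehicle was 0.30 in cortex and 0.37 in medulla. Values are as deposited unless called rescaled, which means after each library was divided by its median ratio to a common reference, a step that sets that median near 0. Depth relative to the other libraries, read from the steps of low values, ranged from 0.599 to 1.53. All 50 libraries were most like a group of their own tissue and genotype, and 27 were most like their own group. These 27 held all lean libraries but none of obese vehicle. In both tissues the obese vehicle libraries were most like the MK-8722 1 mpk or the enalapril group. Identifiers could not be paired with names beyond the 6 genes, so that the cortex and medulla labels were not checked against marker genes.

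In the cortex of lean vehicle rats Junb and Jun were far more abundant than the other 4 genes. On the per-length FPKM scale Junb (ENSRNOG00000042838) averaged 25.4 ± 5.32 and Jun (ENSRNOG00000026293) 23.5 ± 4.11 (SD, n = 5). Egr1 (ENSRNOG00000019422) averaged 2.46 ± 1.23, Fos (ENSRNOG00000008015) 1.94 ± 1.19, Myc (ENSRNOG00000004500) 1.80 ± 0.295 and Atf3 (ENSRNOG00000003745) 0.968 ± 0.141. Among the genes that passed the filter over all 50 libraries, these means placed Junb above 85.9% and Atf3 above 17.1%. In lean medulla the order of the means was the same, from Junb at 46.9 ± 12.1 and Jun at 25.3 ± 6.72 through Egr1 at 8.90 ± 3.79, Fos at 5.15 ± 2.36 and Myc at 3.58 ± 0.557 to Atf3 at 1.18 ± 0.322 (SD, n = 5).

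All 6 genes were higher in the cortex of obese vehicle than of lean vehicle rats. The rise was largest for Atf3, at 8.003 times the lean mean, and Myc, at 5.42 times, followed by Fos at 3.76, Egr1 at 2.97, Junb at 2.50 and Jun at 1.70 times. All 6 passed the test of limma at an adjusted p under 0.05, in a tissue where 54.3% of the 13579 tested genes were called higher, so the count alone says little. After rescaling, 23.4% of genes were called higher and again all 6 were. The median log2 fold change of the 6 genes was 1.58 as deposited and 1.29 rescaled, against 0.30 and -0.01 over all tested genes.

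Among the AP-1 genes, Fos stood at 0.986, 3.87, 1.29, 1.26 and 2.28 FPKM in the 5 lean cortex libraries and at 9.79, 6.33, 8.95, 4.05 and 7.34 in the 5 obese vehicle libraries. The groups did not overlap, although the highest lean library, replicate 2, came close to the lowest obese one, replicate 5. Fos rose by 1.74 ± 0.273 on the log2 scale (SE, adjusted p = 1.33e-05), and by 1.45 after rescaling (adjusted p = 6.32e-05). Jun, a partner of Fos in AP-1, was at 16.8, 24.1, 22.9, 26.2 and 27.3 FPKM in lean and 45.0, 38.2, 46.8, 35.7 and 33.9 in obese vehicle cortex. Every obese library lay above every lean one, yet the change was the smallest of the 6, at 0.76 ± 0.149 on the log2 scale (SE, adjusted p = 0.000143) and 0.42 after rescaling (adjusted p = 0.0127). Junb, which pairs with Fos in place of Jun, was at 24.8, 31.1, 27.6, 16.8 and 26.8 FPKM in lean cortex. In obese vehicle cortex it was at 74.1, 69.0, 75.2, 47.0 and 51.9. Again the groups did not overlap, and Junb rose by 1.31 ± 0.194 on the log2 scale (SE, adjusted p = 6.46e-06), or 0.97 rescaled (adjusted p = 7.98e-05).

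Egr1 was at 1.67, 4.22, 1.65, 1.47 and 3.28 FPKM in lean cortex and at 10.1, 6.85, 9.57, 3.83 and 6.22 in obese vehicle cortex. It was the only one of the 6 genes whose groups overlapped, through obese vehicle replicate 5, which lay below lean replicate 2. The log2 fold change was 1.42 ± 0.313 (SE, adjusted p = 0.000557), and 1.12 after rescaling (adjusted p = 0.00281). Lean cortex libraries had a depth of 1.36 ± 0.081 and those of obese vehicle 1.02 ± 0.213 (SD, n = 5), so depth moved with the genotype. When it was added to the model the other 5 genes were still called, and Egr1, at a log2 fold change of 0.88, was not (adjusted p = 0.0575).

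Atf3 was low in every lean cortex library, at 0.884, 0.935, 0.968, 1.21 and 0.848 FPKM. These values lay near the filter level of 1 FPKM, which Atf3 passed through its obese libraries. In obese vehicle cortex it was at 9.997, 8.87, 8.44, 3.54 and 7.88, with replicate 5 well below the other 4 libraries. The log2 fold change of 2.42 ± 0.242 (SE, adjusted p = 2.58e-08) ranked Atf3 109 of 13579 from the top, and rescaling left it at 2.15 (adjusted p = 1.26e-08). Myc was at 1.82, 2.10, 1.86, 1.30 and 1.91 FPKM in lean and 10.3, 13.1, 9.95, 6.75 and 8.57 in obese vehicle cortex. No lean library came near an obese one, the log2 fold change was 2.14 ± 0.21 (SE, adjusted p = 2.03e-08, rank 201), and it was 1.84 after rescaling (adjusted p = 1.29e-08). Obese and lean libraries thus did not overlap for 5 of the 6 genes as deposited, where 36.4% of all tested genes were separated upwards, and for 3 of the 6 after rescaling, against 16.4%.

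**Figure D1:**
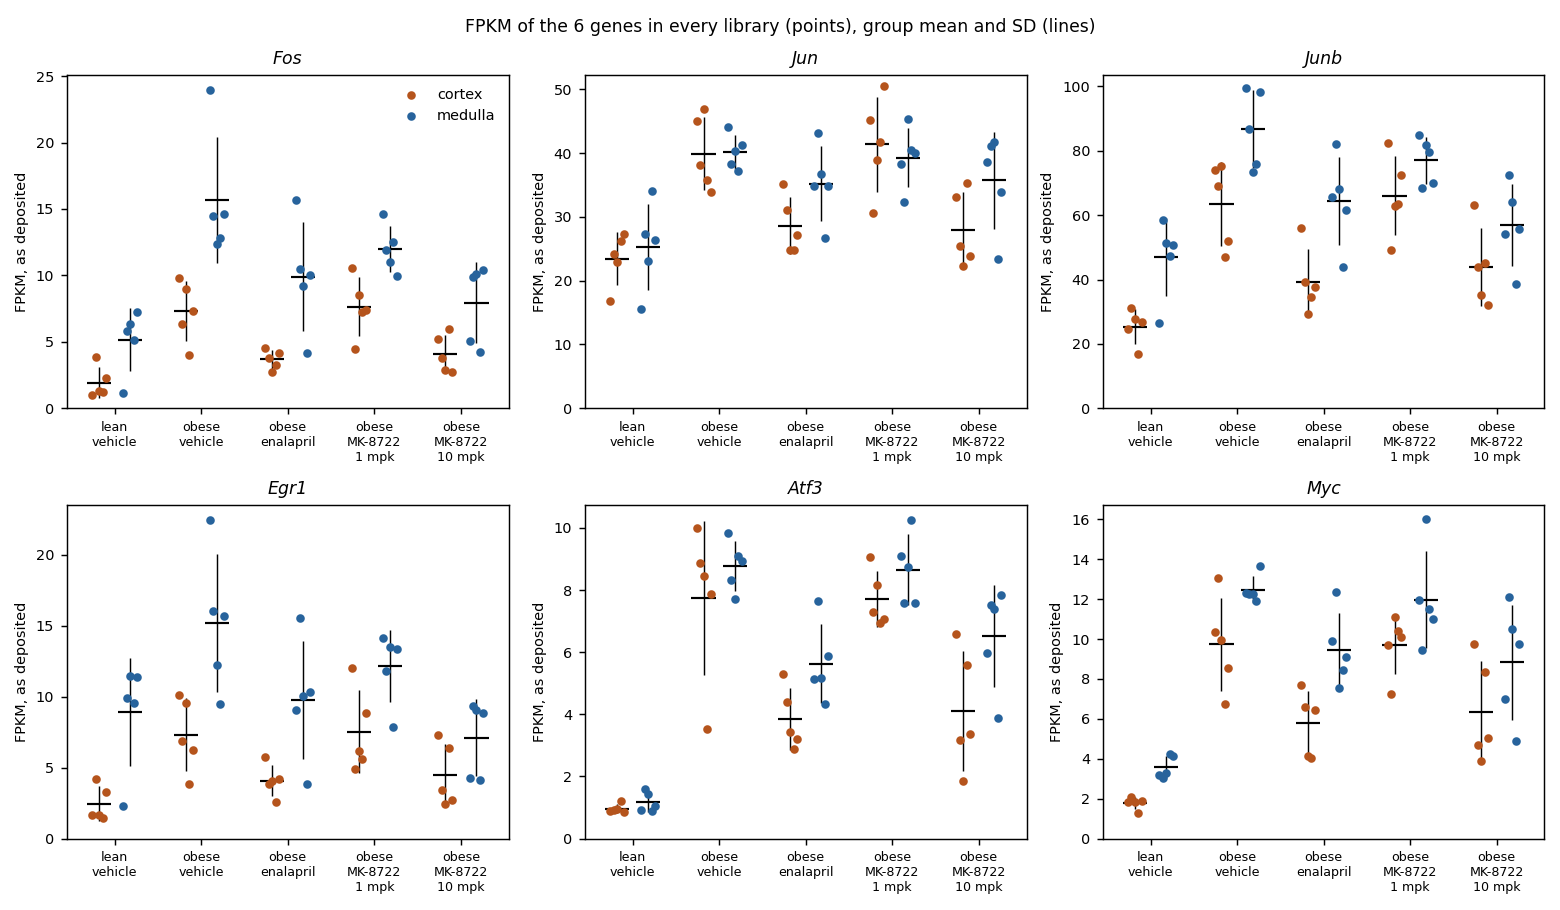
FPKM as deposited (vertical axis, linear, from 0) of each gene in each of the 50 libraries (points, 5 per group), with group means and SD as lines; treatments are along the horizontal axis and colours separate cortex from medulla. Atf3 and Myc show the widest separation of the lean from the obese groups. Their means are 0.968 and 1.80 in lean cortex and 7.75 and 9.74 in obese vehicle cortex. For all genes but Jun, the mean is higher in medulla than in cortex in every treatment group.

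In medulla, too, all 6 genes were higher in obese than in lean vehicle rats as deposited, with 56.8% of the 14195 tested genes called higher. Only Fos, Junb, Atf3 and Myc were also called after rescaling, when 26.9% of genes were. The median log2 fold change of the 6 genes was 1.28 as deposited and 0.90 rescaled, against 0.37 and 0.01 over all tested genes. Atf3 again changed most, at 7.44 times the lean mean, then Myc at 3.48, Fos at 3.04, Junb at 1.85, Egr1 at 1.70 and Jun at 1.59 times.

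Fos stood at 1.15, 5.82, 6.38, 5.17 and 7.23 FPKM in lean medulla and at 23.96, 14.5, 12.4, 12.8 and 14.6 in obese vehicle medulla. Lean replicate 1 was far below the other lean libraries and obese replicate 3 far above the other obese ones, but the groups did not overlap. Its log2 fold change was 1.65 ± 0.358 (SE, adjusted p = 0.000349). It was 1.25 (adjusted p = 0.000636) without lean replicate 1, 1.28 (adjusted p = 0.0038) after rescaling, and 0.88 (adjusted p = 0.011) with both changes made together. Junb was at 26.4, 58.4, 51.3, 47.4 and 50.8 FPKM in lean and 99.5, 86.8, 73.3, 75.8 and 98.1 in obese vehicle medulla. The libraries again separated fully, and the log2 change was 0.92 ± 0.182 (SE, adjusted p = 0.000118) and 0.52 after rescaling (adjusted p = 0.0117). Rescaled and without lean replicate 1, the Junb change was 0.34 and was no longer called (adjusted p = 0.0516). Jun was at 15.6, 27.4, 23.1, 34.1 and 26.4 FPKM in lean medulla and at 44.1, 38.3, 40.3, 37.2 and 41.2 in obese vehicle medulla. Its groups did not overlap either, but its log2 fold change of 0.70 ± 0.163 (SE, adjusted p = 0.000632) was nearer than that of the other genes to the median of all genes. After rescaling it was 0.31 and was not called (adjusted p = 0.0911).

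Egr1 in medulla had the least secure change. It was at 2.29, 9.87, 11.4, 9.55 and 11.4 FPKM in lean and 22.4, 16.0, 12.2, 9.503 and 15.7 in obese vehicle medulla, so that 4 of 5 lean libraries lay within the range of the obese ones. The log2 fold change was 0.85 ± 0.37 (SE, adjusted p = 0.0471) and 0.47 after rescaling (adjusted p = 0.292). Without lean replicate 1 the Egr1 change was 0.45 (adjusted p = 0.2), and with rescaling as well it was 0.08 (adjusted p = 0.851). With a pseudocount of 0.1, no filter, the replicate block or the compared groups only, the Egr1 call was lost as well (adjusted p = 0.0514, 0.0628, 0.089 and 0.0998). It was also lost without obese vehicle replicates 3 (adjusted p = 0.119), 4 (0.0794), 5 (0.0507) or 7 (0.0785).

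Atf3 and Myc gave the clearest separation in medulla. Atf3 was at 0.908, 1.61, 1.43, 0.894 and 1.062 FPKM in lean and 9.84, 8.34, 7.71, 9.09 and 8.94 in obese vehicle medulla, and rose by 2.48 ± 0.16 on the log2 scale (SE, adjusted p = 7.53e-12). As in cortex, Atf3 passed the filter only through its obese libraries, so its p-value is no separate support for the rise. It was called in each of the 17 alternatives, the fit without a filter among them. Myc was at 3.21, 3.03, 3.31, 4.23 and 4.13 FPKM in lean and 12.3, 12.3, 12.3, 11.9 and 13.7 in obese vehicle medulla, and rose by 1.68 ± 0.173 (SE, adjusted p = 1.18e-08). For both genes the lowest obese library was well above the highest lean one, and after rescaling the changes were 2.16 for Atf3 (adjusted p = 2.24e-11) and 1.31 for Myc (adjusted p = 1.34e-07). Groups did not overlap for 5 of the 6 genes as deposited (45.7% of all tested genes were separated upwards) and for 4 of 6 rescaled (20.4%). Depth again moved with the genotype, from 1.13 ± 0.0774 in lean to 0.728 ± 0.0816 in obese vehicle medulla (SD, n = 5). With depth in the model all 6 genes were called in medulla, Egr1 at an adjusted p of 0.0498. The depths of the 2 groups did not overlap, at 0.992 to 1.18 in lean and 0.599 to 0.815 in obese vehicle. That fit therefore cannot tell depth and genotype apart.

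**Figure D2:**
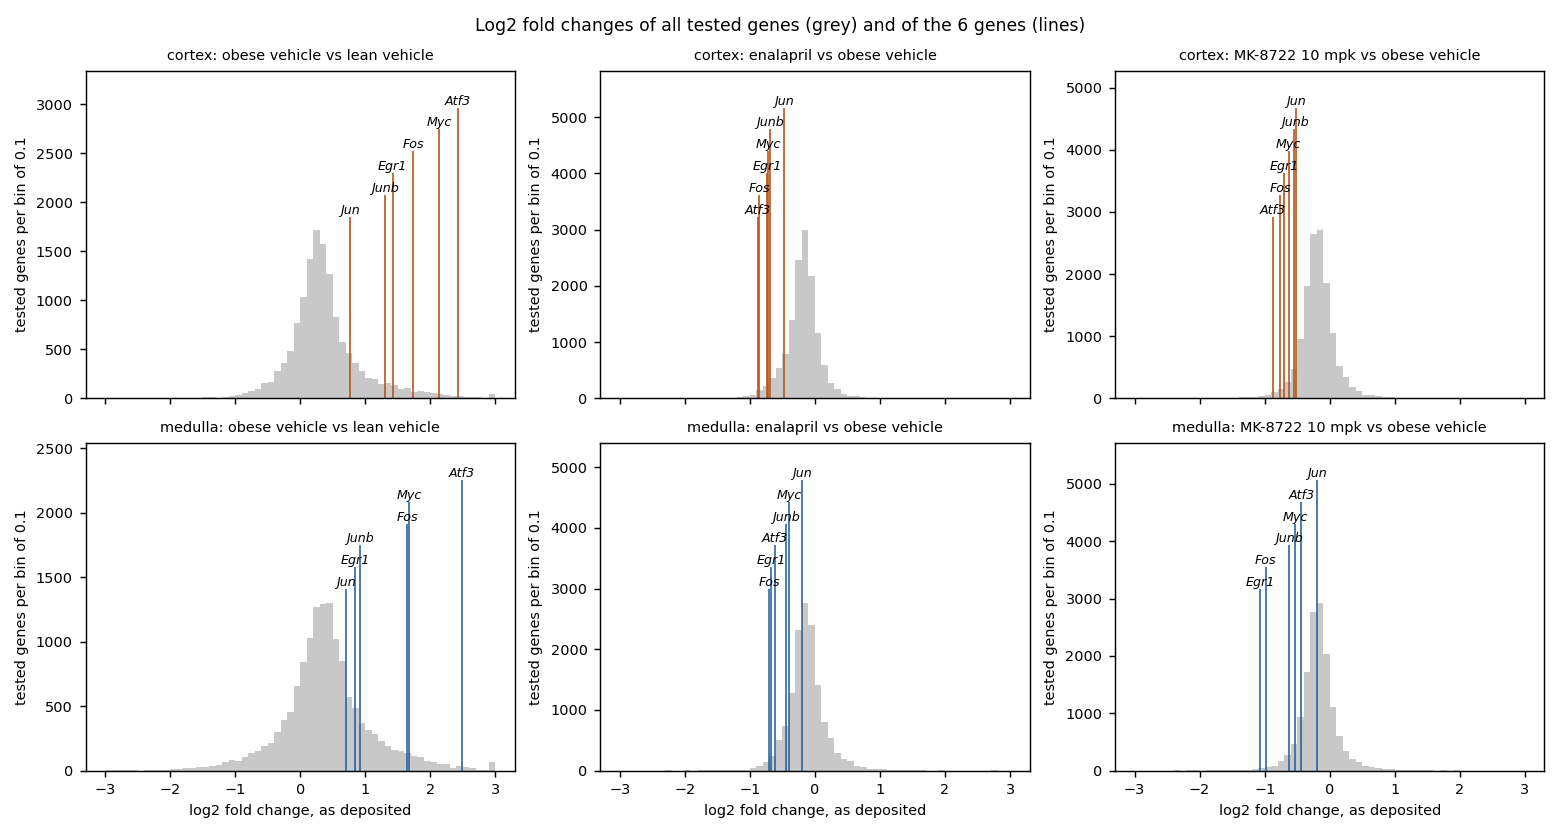
Number of tested genes per bin of 0.1 (vertical axis) by log2 fold change as deposited (horizontal axis) for the main comparisons in each tissue, with the 6 genes as vertical lines; values beyond 3 in either direction are gathered in the end bins. Between obese and lean vehicle all 6 lines lie to the right of the medians of 0.30 in cortex and 0.37 in medulla, with Atf3 farthest right in both tissues and Jun nearest to the median.

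Whether obesity changed these genes to a different extent in the 2 tissues was tested as an interaction in a joint fit of all 50 libraries. None of the 6 genes was called (adjusted p between 0.429 and 0.956), while 4.86% of the 14586 tested genes were. The largest of the 6 differences was that of Egr1, whose log2 fold change was 0.57 ± 0.5 (SE) larger in cortex than in medulla, followed by Myc at 0.46 ± 0.28 and Junb at 0.39 ± 0.274. At unadjusted p under 0.05 the interaction named 2533 genes over all and, as deposited, none of the 6. After rescaling the difference for Myc was 0.54 ± 0.239 (SE, unadjusted p = 0.03, adjusted p = 0.194), and again none of the 6 was called.

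The tissues did differ in level. In lean vehicle rats, Egr1, Fos, Junb and Myc were lower in cortex than in medulla, whereas Jun and Atf3 did not pass the test. The log2 differences between cortex and medulla were -1.59 ± 0.353 for Egr1 (SE, adjusted p = 3e-04), -1.16 ± 0.328 for Fos (adjusted p = 0.00411), -0.85 ± 0.194 for Junb (adjusted p = 0.000407) and -0.83 ± 0.198 for Myc (adjusted p = 0.000693). For Jun and Atf3 they were -0.08 ± 0.161 (adjusted p = 0.725) and -0.18 ± 0.211 (adjusted p = 0.532). In this comparison 28.4% of tested genes were called lower in cortex, and 19.9% after rescaling, which left the same 4 genes called. With the 2 lean groups fitted alone, Fos was not called (adjusted p = 0.0699). Only for Myc were the lean libraries of the 2 tissues fully apart, with the highest cortex library at 2.10 and the lowest medulla library at 3.03 FPKM, as was so for 24.3% of all tested genes. For Fos, Junb and Egr1 the overlap came from the low medulla replicate 1.

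In obese vehicle rats, Fos and Egr1 were lower in cortex, by log2 differences of -1.07 ± 0.328 (SE, adjusted p = 0.00724) and -1.02 ± 0.353 (adjusted p = 0.0168). Junb, at -0.46 ± 0.194, was called as deposited (adjusted p = 0.047) and not after rescaling, when it was -0.27 (adjusted p = 0.221). Of all tested genes 35.1% were called lower in cortex, and 19.4% after rescaling. Fos was the only one of the 6 whose libraries did not overlap between the tissues, from 4.05 to 9.79 FPKM in cortex and from 12.4 to 23.96 in medulla (18.1% of all tested genes were separated this way). Myc at -0.37, Atf3 at -0.24 and Jun at -0.02 were not called (adjusted p = 0.119, 0.362 and 0.93). The tissues also differed in depth, at 1.02 in cortex and 0.728 in medulla, and none of the 6 was called in obese vehicle rats with depth in the model. The calls of Junb and Egr1 rested on single libraries. Without cortex replicate 5 the adjusted p was 0.162 for Junb and 0.0772 for Egr1, and without medulla replicate 3 it was 0.101 and 0.0538. Junb was also not called without cortex replicate 6 (0.108) or medulla replicates 4 (0.0704) or 7 (0.106), and Myc was called without cortex replicate 2 (0.0498). Across the main fit and the alternatives, the share of all tested genes called in either direction ran from 25.4% to 49.6%.

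Enalapril lowered 5 of the 6 genes in obese cortex as deposited. Mean levels under enalapril were 0.497 times those of obese vehicle for Atf3, 0.505 for Fos, 0.559 for Egr1, 0.593 for Myc, 0.621 for Junb and 0.717 for Jun. Egr1 was the gene that missed the test. Called lower were 13.9% of all tested genes. After rescaling 1.27% were called lower and none of the 6 was, although their median log2 fold change was -0.54 against 0.00 over all tested genes, and -0.73 against -0.18 as deposited. No gene of the 6 separated the groups fully, as 5.04% of all tested genes did downwards.

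Atf3 was at 5.30, 4.397, 3.44, 2.89 and 3.22 FPKM in the 5 enalapril cortex libraries, against 3.54 to 9.997 in obese vehicle. Of the enalapril libraries 3 lay below all obese vehicle libraries and the overlap came from obese vehicle replicate 5. The gene changed by -0.88 ± 0.242 (SE, adjusted p = 0.0265), and -0.70 rescaled (adjusted p = 0.0628). Myc, at 7.71, 6.58, 4.12, 4.02 and 6.43 FPKM under enalapril, changed by -0.72 ± 0.21 (SE, adjusted p = 0.0321). Fos was at 4.505, 3.80, 2.71, 3.24 and 4.16 FPKM under enalapril, with 3 of the 5 libraries below the obese vehicle range, and changed by -0.86 ± 0.273 (SE, adjusted p = 0.0402). The other AP-1 genes moved less. Junb was at 55.9, 39.2, 29.3, 34.7 and 37.8 FPKM and changed by -0.69 ± 0.194 (SE, adjusted p = 0.0284), and Jun, at 35.2, 31.1, 24.8, 24.8 and 27.2 FPKM, by -0.47 ± 0.149 (SE, adjusted p = 0.0384). Enalapril replicate 1 was the highest of its group for all 6 genes. Egr1 was at 5.73, 3.83, 4.07, 2.60 and 4.22 FPKM, and its change of -0.73 ± 0.313 (SE) was not called (adjusted p = 0.0989). Rescaled, the changes were -0.68 for Fos, -0.28 for Jun, -0.50 for Junb, -0.55 for Egr1 and -0.53 for Myc (adjusted p = 0.125, 0.223, 0.107, 0.267 and 0.0907).

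These calls were close to the threshold. Leaving out obese vehicle replicate 5 raised the number of genes called to 6 of 6, with Egr1 at an adjusted p of 0.0303. Leaving out enalapril replicate 1 left 5 called, and leaving out obese vehicle replicate 3 left Junb, Atf3 and Myc (adjusted p = 0.0386, 0.0319 and 0.0356). Without enalapril replicate 2 only Atf3 was called (adjusted p = 0.0477). None of the 6 was called without enalapril replicate 4, 6 or 7, or without obese vehicle replicate 1, 2 or 6. All 6 changes stayed negative in each of these fits, and the share of all genes called varied with them, from 0.17% without obese vehicle replicate 2 to 33.4% without obese vehicle replicate 5. Depth in cortex was 1.25 ± 0.167 under enalapril against 1.02 ± 0.213 (SD, n = 5), and none of the 6 was called when depth was added to the model.

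In obese medulla under enalapril, all 6 means were lower and only Atf3 was called. The falls of Fos (-0.70 ± 0.358) and Egr1 (-0.67 ± 0.37) were no smaller than that of Atf3, with larger SE. Atf3 was the gene called. Atf3 was at 5.14, 7.66, 5.16, 4.32 and 5.89 FPKM under enalapril against 7.71 to 9.84 in obese vehicle. The groups did not overlap, as was so downwards for 7.14% of all tested genes, and after rescaling they overlapped. The log2 fold change of Atf3 was -0.62 ± 0.16 (SE, adjusted p = 0.0234), where 9.06% of genes were called lower. It was -0.49 after rescaling and no longer called (adjusted p = 0.0542, with 1.83% of genes called lower). The Atf3 call was also lost without enalapril replicate 5 (adjusted p = 0.0704), obese vehicle replicate 6 (0.0537) or obese vehicle replicate 7 (0.0877). Across the main fit and the alternatives, the share of all tested genes called in either direction ran from 0.0495% to 16.6%.

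The other 5 genes had lower means under enalapril in medulla without passing the test. Fos was at 15.7, 10.5, 9.20, 4.14 and 10.1 FPKM and changed by -0.70 ± 0.358 on the log2 scale (SE, adjusted p = 0.183), and Egr1 at 9.08, 15.5, 10.1, 3.82 and 10.3, a change of -0.67 ± 0.37 (SE, adjusted p = 0.214). For both, replicate 6 was far below the other 4 libraries and the obese vehicle range was reached by at least 1 enalapril library. Junb changed by -0.45 ± 0.182 (adjusted p = 0.0995), Myc by -0.40 ± 0.173 (adjusted p = 0.119) and Jun by -0.20 ± 0.163 (adjusted p = 0.397). The interaction of tissue with enalapril called none of the 6 (adjusted p between 0.996 and 0.999, with 0.00686% of all genes called), so a difference between the tissues in the effect of the drug was not shown; at unadjusted p under 0.05 it named 774 genes and none of the 6.

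MK-8722 at 10 mpk lowered Fos, Jun, Junb, Atf3 and Myc in obese cortex as deposited. The comparison shares its obese vehicle libraries with that of enalapril, so the 2 results are not independent. Group means were 0.531 times those of obese vehicle for Atf3, 0.562 for Fos, 0.61 for Egr1, 0.65 for Myc, 0.691 for Junb and 0.702 for Jun. Called lower were 24.5% of all tested genes. After rescaling, 3.76% were called lower and Atf3 alone of the 6. The median log2 fold change of the 6 genes was -0.67 as deposited and -0.48 rescaled, against -0.19 and -0.01 over all tested genes.

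Atf3 was at 6.58, 3.18, 1.84, 5.60 and 3.37 FPKM in the MK-8722 10 mpk cortex libraries, and its log2 fold change was -0.87 ± 0.242 (SE, adjusted p = 0.0123), or -0.69 rescaled (adjusted p = 0.0383). Jun, at 33.1, 25.4, 22.3, 35.4 and 23.9 FPKM, changed by -0.52 ± 0.149 (SE, adjusted p = 0.015), and Myc, at 9.73, 4.68, 3.87, 8.34 and 5.03 FPKM, by -0.63 ± 0.21 (SE, adjusted p = 0.0301). For these 3 genes replicates 2 and 6 were the highest libraries, and both lay within the obese vehicle range for Atf3 and Myc, as did replicate 6 alone for Jun. Junb was at 63.0, 44.0, 35.1, 45.0 and 32.1 FPKM and changed by -0.54 ± 0.194 (SE, adjusted p = 0.0415). Fos was at 5.18, 3.76, 2.85, 5.96 and 2.76 FPKM and changed by -0.76 ± 0.273 (SE, adjusted p = 0.0426). Egr1, at 7.27, 3.42, 2.44, 6.41 and 2.75 FPKM, had a change of -0.70 ± 0.313 (SE) that was not called (adjusted p = 0.0963). Rescaled, the changes were -0.57 for Fos, -0.32 for Jun, -0.34 for Junb, -0.52 for Egr1 and -0.44 for Myc (adjusted p = 0.171, 0.157, 0.242, 0.293 and 0.128). None of the 6 separated the groups fully, as 6.36% of all tested genes did downwards.

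The same-numbered libraries of these 2 groups correlated in their deviations, and with the replicate number as a block the number of genes called fell from 5 to 3, namely Atf3 (adjusted p = 0.00185), Myc (0.0441) and Jun (0.0482). Of these 5 libraries 3 carry numbers in a separate higher range, as does 1 of the obese vehicle libraries, and with that range in the model Atf3 and Jun were called (adjusted p = 0.0336 and 0.0383). Depth was 1.34 ± 0.194 under MK-8722 10 mpk (SD, n = 5) against 1.02 in obese vehicle, and none was called with depth in the model. Leaving out obese vehicle replicate 5 or MK-8722 replicate 2 gave 6 genes called, leaving out MK-8722 replicate 5 gave none, and leaving out obese vehicle replicates 1 or 2 or MK-8722 replicates 4 or 7 gave Jun and Atf3. Jun, Atf3 and Myc were called without obese vehicle replicate 3, and these with Junb without replicate 6. Across the main fit and the alternatives, the share of all tested genes called in either direction ran from 3.16% to 38.3%. The counts of the 6 genes moved with that share and say little alone.

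In obese medulla under MK-8722 at 10 mpk, Junb, Egr1 and Myc were called lower as deposited, where 16.5% of all tested genes were called lower. After rescaling none of the 6 was called and 2.15% of genes were. Egr1 was at 4.24, 9.32, 9.04, 4.12 and 8.85 FPKM, all below the lowest obese vehicle library at 9.503, and its log2 fold change was -1.07 ± 0.37 (SE, adjusted p = 0.0479). Junb was at 54.2, 72.5, 64.0, 38.5 and 55.8 FPKM, also below all obese vehicle libraries, with a change of -0.62 ± 0.182 (SE, adjusted p = 0.0238). Myc was at 7.0, 12.1, 10.5, 4.88 and 9.75 FPKM, with 4 of 5 libraries below the obese vehicle range, and changed by -0.54 ± 0.173 (SE, adjusted p = 0.0345).

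Fos narrowly missed the test in medulla although its libraries were fully separated. It was at 5.06, 9.89, 10.1, 4.23 and 10.4 FPKM, against 12.4 to 23.96 in obese vehicle, and its log2 fold change was -0.98 ± 0.358 (SE, adjusted p = 0.0579). Fos, Junb and Egr1 were thus the 3 genes whose groups did not overlap as deposited, as was so downwards for 8.13% of all tested genes. After rescaling Fos alone of the 6 stayed apart, among 1.7% of genes, and Junb and Egr1 overlapped. Atf3, at 5.97, 7.53, 7.38, 3.89 and 7.85 FPKM, changed by -0.44 ± 0.16 (SE, adjusted p = 0.0587), and Jun by -0.20 ± 0.163 (SE, adjusted p = 0.388). Rescaled, the changes were -0.89 for Egr1, -0.80 for Fos, -0.44 for Junb, -0.36 for Myc, -0.26 for Atf3 and -0.01 for Jun (adjusted p = 0.167, 0.205, 0.143, 0.187, 0.344 and 0.973). As deposited, replicate 5 was the lowest library of the group for each of the 6 genes. None of the 6 was called without MK-8722 replicates 1 or 5, without obese vehicle replicate 7, or with the replicate block. Without MK-8722 replicate 2 or replicate 6, 5 were called (Jun was not), Junb alone was called without obese vehicle replicate 4, Junb and Myc without obese vehicle replicates 3 or 5, and Junb and Egr1 without obese vehicle replicate 6. Depth was 0.869 ± 0.129 under the drug (SD, n = 5) and 0.728 in obese vehicle medulla, and none of the 6 was called with depth in the model. Across the main fit and the alternatives, the share of all tested genes called in either direction ran from 3.5% to 22.9%. The interaction of tissue with this treatment called none of the 6 (adjusted p between 0.749 and 0.975, 0.226% of all genes called); at unadjusted p under 0.05 it named 1207 genes and none of the 6.

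MK-8722 at 1 mpk left no call in either tissue. In cortex the log2 fold changes of the 6 genes against obese vehicle were between 0.01 ± 0.21 (Myc) and 0.07 ± 0.273 (Fos), with an adjusted p of 0.999 for each, and 0% of all tested genes were called by limma, though 583 had an unadjusted p under 0.05. The mean of Atf3 was 7.71 ± 0.892 FPKM under 1 mpk and 7.75 ± 2.48 in obese vehicle, and that of Jun 41.4 ± 7.43 and 39.9 ± 5.70 (SD, n = 5). In medulla the changes lay between -0.02 ± 0.16 (Atf3) and -0.34 ± 0.358 (Fos), with an adjusted p of 1, again with 0% of all genes called and 577 at an unadjusted p under 0.05. Fos in medulla was at 14.6, 11.9, 11.0, 12.5 and 9.94 FPKM, with 3 of the 5 libraries below the obese vehicle range.

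**Figure D3:**
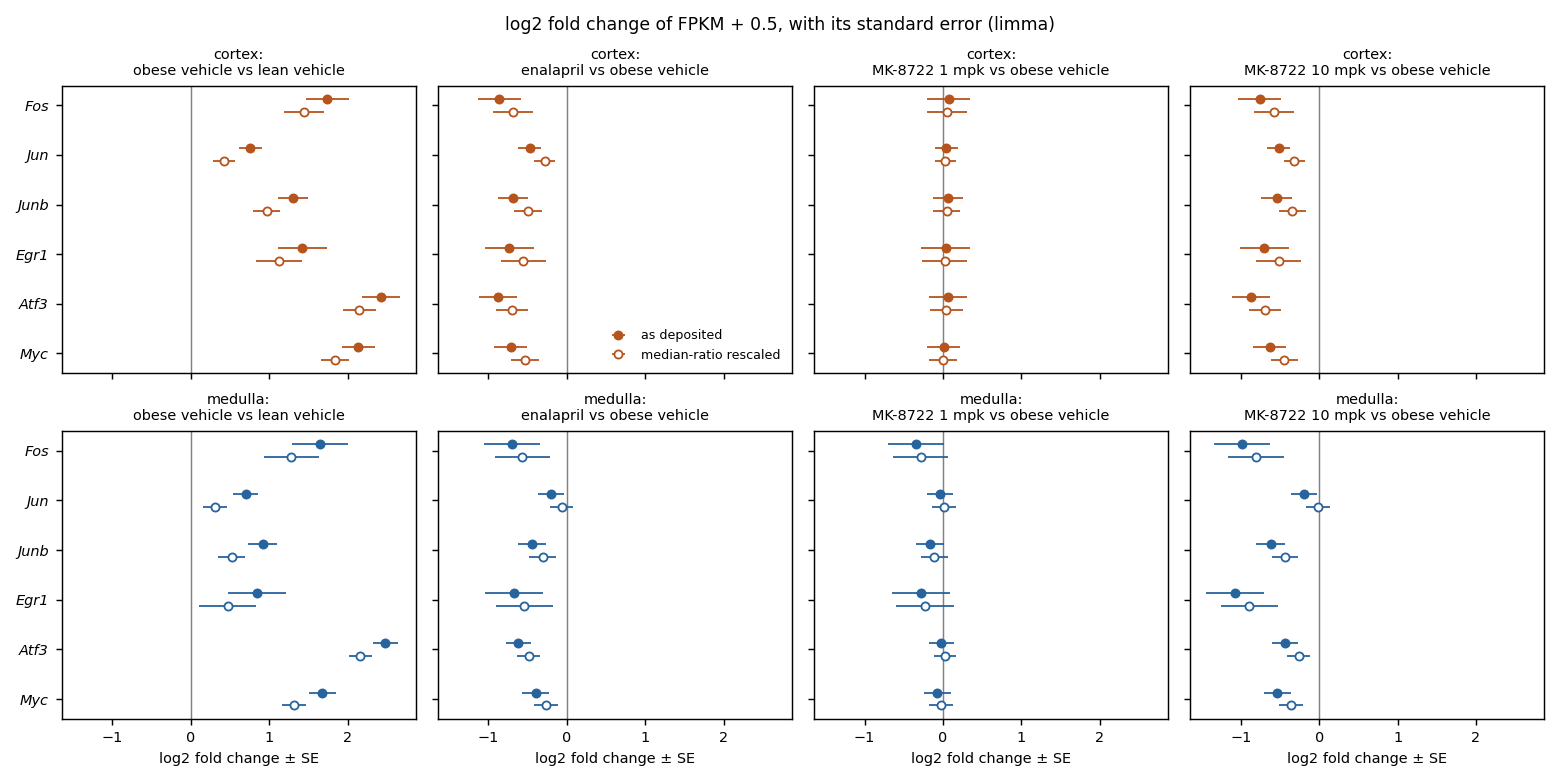
Log2 fold change of FPKM + 0.5 with its standard error (horizontal axis) for each of the 6 genes, in cortex (upper row) and medulla (lower row), as deposited (filled points) and after median-ratio rescaling (open points). The obese against lean changes are all positive, the changes under enalapril and MK-8722 10 mpk are negative, those under MK-8722 1 mpk lie near 0 in cortex, and rescaling moves most points towards 0; Jun in medulla under MK-8722 10 mpk goes from -0.20 to -0.01.

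The 2 doses of MK-8722 were also compared with each other, a difference that does not use the obese vehicle means. The obese vehicle libraries still entered the estimate of the spread, which all 5 groups of a tissue shared. In cortex 5 of the 6 genes were lower at 10 mpk than at 1 mpk, and 28.0% of all tested genes were called lower. Atf3 was the only one whose libraries separated fully, from 1.84 to 6.58 FPKM at 10 mpk and from 6.95 to 9.06 at 1 mpk (9.44% of tested genes were so separated downwards; after rescaling Atf3 overlapped), and its log2 difference was -0.93 ± 0.242 (SE, adjusted p = 0.00886). The differences were -0.83 ± 0.273 for Fos (adjusted p = 0.0269), -0.64 ± 0.21 for Myc (adjusted p = 0.0258), -0.61 ± 0.194 for Junb (adjusted p = 0.0238) and -0.56 ± 0.149 for Jun (adjusted p = 0.00964). Egr1 differed by -0.74 ± 0.313 and was not called (adjusted p = 0.0751). After rescaling only Atf3 was called, at -0.73 (adjusted p = 0.0252), with 4.62% of genes called lower. Depth was 1.062 ± 0.123 at 1 mpk and 1.34 ± 0.194 at 10 mpk (SD, n = 5), and none of the 6 was called with depth in the model.

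Jun and Atf3 were called in the dose comparison whichever single library was left out, and the count of genes called fell to these 2 without MK-8722 10 mpk replicate 5 or 7. It was 3, with Myc, without 1 mpk replicate 1, and 3, with Junb, without 1 mpk replicate 4 or 10 mpk replicate 4. Egr1 joined the other 5 without 10 mpk replicate 2 or 6. Across the main fit and the alternatives, the share of all tested genes called in either direction ran from 2.4% to 38.5% in cortex. In medulla the same comparison called none of the 6 (adjusted p between 0.101 and 0.553), and 5.92% of all genes. The medullary log2 differences ran from -0.16 ± 0.163 for Jun to -0.79 ± 0.37 for Egr1. Myc, at -0.46 ± 0.173, was called without 10 mpk replicate 2 (adjusted p = 0.0344).

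MK-8722 at 10 mpk and enalapril, both given at 10 mpk, were not distinguished by these genes. In cortex the log2 differences between the drugs ran from -0.04 ± 0.149 for Jun to 0.15 ± 0.194 for Junb (SE, adjusted p between 0.749 and 0.994), with 9.63% of all tested genes called. For Atf3 the difference was 0.01 ± 0.242, with means of 4.11 ± 1.93 FPKM under MK-8722 and 3.85 ± 0.988 under enalapril (SD, n = 5). In medulla they ran from -0.40 ± 0.37 for Egr1 to 0.18 ± 0.16 for Atf3 (adjusted p between 0.673 and 0.993), with 2.73% of genes called. The errors do not show that the drugs had equal effects.

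No treated group reached the lean level of Atf3 or Myc. In cortex all 20 obese libraries, treated or not, lay above all 5 lean ones for Atf3 (lowest obese 1.84, highest lean 1.21 FPKM) and Myc (3.87 and 2.10), and 12.1% of all tested genes were separated in this way, or 8.77% after rescaling. In medulla the same held for Atf3 (3.89 and 1.61) and Myc (4.88 and 4.23), among 16.6% of genes, or 9.72% rescaled, and both genes stayed separated in both tissues after rescaling. For the other 4 genes treated and lean libraries overlapped in both tissues. Junb came nearest to separation in cortex, where 19 of the 20 obese libraries were above every lean one, and Egr1 was the most mixed in medulla, with 9 of 20.

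Ordered by mean FPKM over the 10 groups, obese vehicle medulla was highest for Fos (15.7 ± 4.74), Junb (86.7 ± 12.2), Egr1 (15.2 ± 4.86), Atf3 (8.78 ± 0.804) and Myc (12.5 ± 0.673), and lean cortex was lowest for all 6 genes. For Jun the order was led by cortex under MK-8722 1 mpk at 41.4 ± 7.43 (SD, n = 5), and the gaps among its first 6 groups were each below the larger SD of the neighbours. In the order of each gene, neighbouring groups differed by more than the larger of their SDs in these steps only: between enalapril cortex and lean cortex for Fos, Junb and Egr1, between enalapril medulla and enalapril cortex for Jun, between enalapril cortex and lean medulla for Atf3 and Myc, and between lean medulla and lean cortex for Myc.

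Within groups the 6 genes tended to vary together from library to library, though for some pairs in medulla the likeness rested on few libraries. Deviations of the log2 values from their group means, after rescaling, correlated positively for all 15 pairs of genes over the 50 libraries, with Pearson r from 0.39 (Jun and Atf3) to 0.87 (Fos and Egr1) and a median of 0.56. The r of a member with all 14586 tested genes had a median between -0.03 and 0.01. These are descriptions, since the values of a library share its RNA, depth and scaling. Of all tested genes, Egr1 was the most like Fos and Fos the most like Egr1 (r = 0.868, Spearman's rho = 0.829, and r = 0.80 without the 2 libraries farthest from the median). Junb was second for both, with r = 0.76 to Fos and 0.81 to Egr1.

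Jun, Atf3 and Myc were less closely tied to this group. Jun ranked 9 among the genes most like Fos (r = 0.63) and 6 among those most like Egr1 (r = 0.67), but seen from Jun, Junb at r = 0.67 was in rank 128, since many other genes followed Jun more closely. The 2 identifiers nearest to Jun were ENSRNOG00000013460 (r = 0.82) and ENSRNOG00000012420 (r = 0.81), for which no symbol was at hand. Atf3 correlated with Myc at r = 0.56 (rank 318 seen from Atf3) and with Egr1 at 0.56 (rank 339). In cortex alone the 15 values of r ran from 0.36 to 0.86, and in medulla alone from 0.42 to 0.88, with Fos and Egr1 at 0.86 and 0.88.

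**Figure D4:**
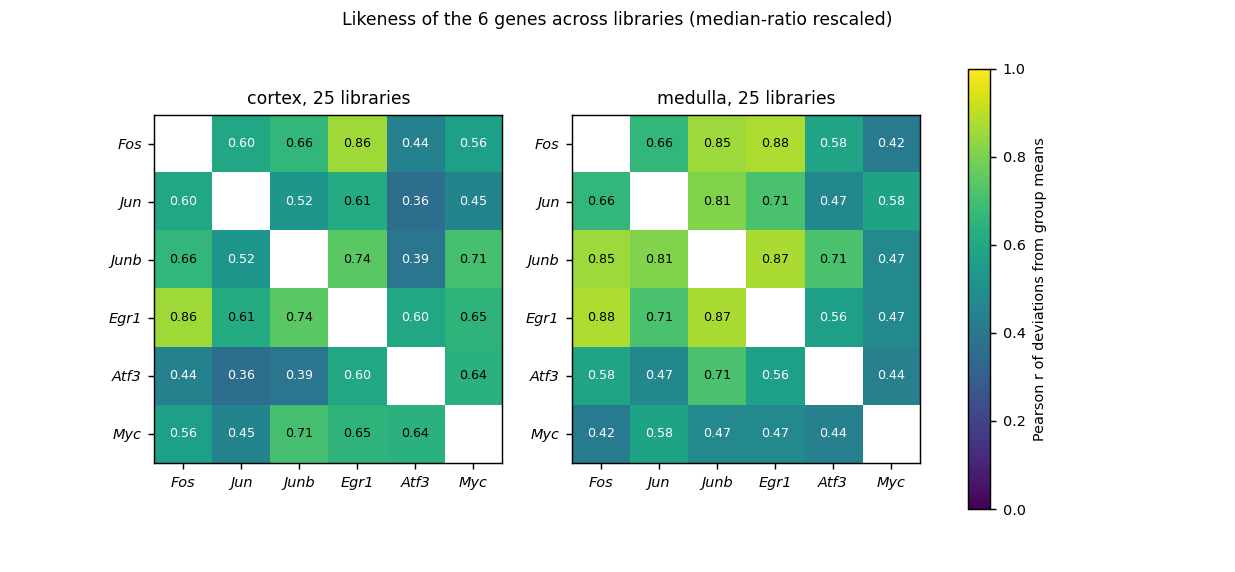
Pearson r between the deviations of each pair of the 6 genes from their group means, after rescaling, in the 25 cortex libraries and in the 25 medulla libraries; colour and number give r and both axes list the genes. Fos, Egr1 and Junb form the closest block in medulla, and Fos and Egr1 have the highest value in both tissues, 0.86 in cortex and 0.88 in medulla.

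A few libraries stood out in several of the genes at once. In lean medulla replicate 1 all 6 genes were below the group mean, at deviations of -1.61 for Fos, -1.57 for Egr1, -0.74 for Junb and -0.61 for Jun on the rescaled log2 scale, and of -0.22 for Atf3 and -0.11 for Myc. Enalapril medulla replicate 6 had a like profile, at -1.078 for Fos and -1.15 for Egr1, against -0.35 for Atf3 and -0.16 for Myc. In MK-8722 10 mpk medulla replicate 5, by contrast, the 6 genes were lower by similar amounts, from -0.38 for Junb to -0.61 for Fos. Lean cortex replicate 2 stood out upwards for Fos (0.97) and Egr1 (0.76). The 2 libraries farthest from the median of the first gene named were then left out. In medulla the r of Fos with Jun went from 0.66 to 0.31. That of Fos with Junb went from 0.85 to 0.66, and that of Fos with Egr1 from 0.88 to 0.71. With the libraries chosen by Jun instead, the r of Jun with Fos in medulla was 0.40, so it fell with either choice. That of Atf3 with Myc in medulla went from 0.44 to 0.11, or to 0.19 with the libraries chosen by Myc. That of Atf3 with Jun in medulla went from 0.47 to 0.28, or to 0.23 with the libraries chosen by Jun. In cortex the r of Fos with Jun went from 0.60 to 0.63, but to 0.45 with the libraries chosen by Jun. That of Fos with Egr1 went from 0.86 to 0.84 in cortex. Over all 50 libraries that of Junb with Atf3 went from 0.51 to 0.60, but to 0.54 with the libraries chosen by Atf3.

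**Figure D5:**
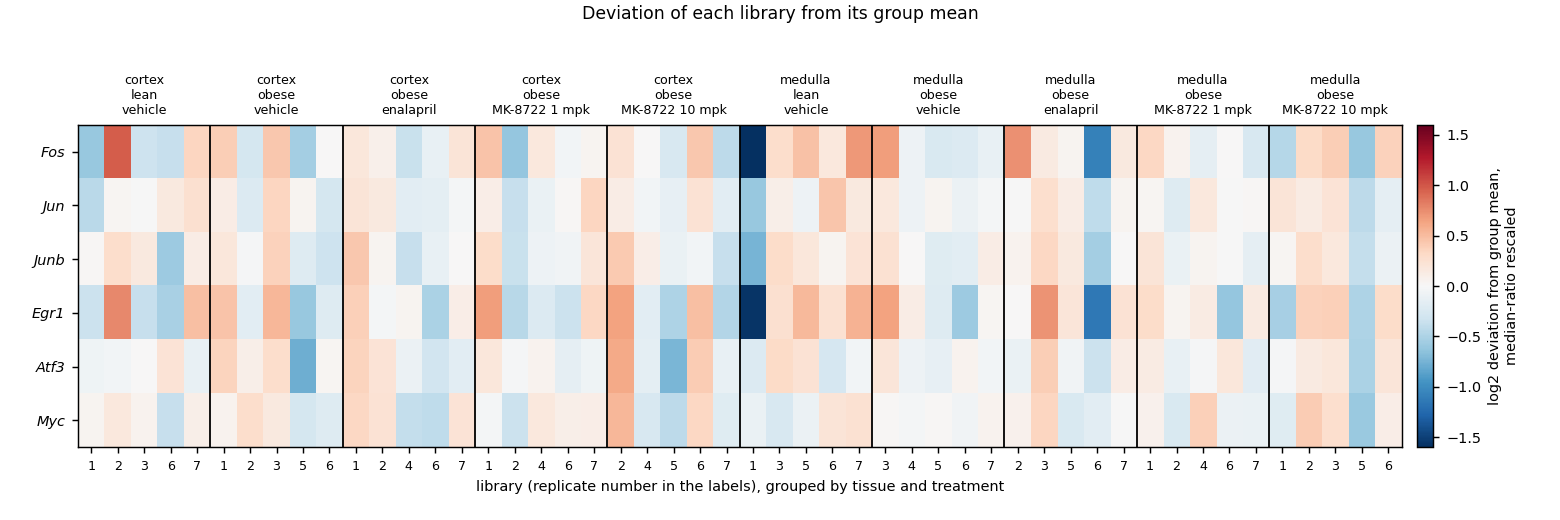
Deviation of each of the 50 libraries (columns, with replicate numbers from the labels, grouped by tissue and treatment) from its group mean for each of the 6 genes (rows), as log2 after rescaling; red is above and blue below the mean. Lean medulla replicate 1 and enalapril medulla replicate 6 are dark blue for Fos and Egr1, at -1.61 and -1.57 and at -1.078 and -1.15, and pale for Atf3 and Myc.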

How the data were processed

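Total RNA of 50 libraries from kidney cortex and medulla was sequenced after removal of ribosomal RNA with a stranded kit, per the labels' protocols. The authors deposited FPKM values for 32545 Ensembl gene identifiers. How reads were aligned and counted, and on which build, is not given in the sources used here. Columns were matched to samples by the library numbers in the sample descriptions. Tests used limma 3.58.1 in R 4.3.3, with trend and robust moderation, on log2(FPKM + 0.5), a scale that understates changes of low genes. A gene was tested in a fit when 5 or more of its libraries reached 1 FPKM. Each tissue was fitted on its 25 libraries, tissue differences and interactions on all 50, with two-sided Benjamini-Hochberg adjusted p over all tested genes, called under 0.05. For rescaling, a library was divided by the median, over tested genes above 0 in every library, of its ratios to the libraries' geometric means. Fits within a tissue took that tissue's 25 libraries as reference. Joint fits, the separation of groups and likeness took all 50, over 13566 genes. Relative depth came from whole multiples of the value of 1 read (93.3% of 61456 low values in 5123 genes, within 0.1 reads).

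Alternatives were a pseudocount of 0.1 or 1, no filter, rescaling, the compared groups only, a replicate block, the library number range as a term, and leaving out each library; relative depth as a term, and rescaling without medulla lean vehicle replicate 1, were chosen after seeing the data. The procedure was tested on simulated data with independent noise for each gene. Those data held no depth difference or composition shift between libraries, so that test cannot speak to calls that such shifts move. Same-numbered cortex MK-8722 10 mpk and obese vehicle libraries deviated together in all 3 pairs (r of 0.22 to 0.37 across genes; 2 of 3 were most like their own number), in no other comparison did every pair exceed 0.1, and the labels state no pairing. The 6 genes and all lists were chosen with earlier results of these data known. The named genes are the 6 and, for likeness, the nearest identifiers. Of the identifiers 0 matched the Ensembl names in the reference table, so the lists of partner genes, target genes and cell type markers were not used here.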

Additional observations from a re-analysis of the deposited data

Results flagged for a closer look

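In 3 of the 60 gene and group combinations, a single library stood apart from the other 4 by a gap above Dixon's critical value of 0.71 of the group's range; chance alone marks about 1 in 20 groups. Fos in medulla obese vehicle replicate 3 was at 23.96 FPKM, with the other 4 libraries between 12.4 and 14.6. Egr1 in medulla lean vehicle replicate 1 was at 2.29 FPKM, with the others between 9.55 and 11.4. Myc in medulla obese vehicle replicate 7 was at 13.7 FPKM, with the others between 11.9 and 12.3.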

How the results depend on the processing

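The 6 calls for obesity in cortex held under every alternative except relative depth as a term, which lost Egr1; in medulla 3 to 6 genes were called, 5 to 6 without single libraries, 4 with rescaling and 3 when medulla lean vehicle replicate 1 was also left out. The drug results depended on the processing. In cortex under enalapril, 5 genes were called, against 2 with no filter, 2 with the compared groups only, and 0 with rescaling or with relative depth as a term; without single libraries the count ran from 0 to 6, and with the replicate block it was 6. In cortex under MK-8722 10 mpk against obese vehicle, 5 were called, against 2 with no filter, 1 with rescaling, 3 with the replicate block, 2 with the number range as a term, 0 with relative depth as a term and 0 with the compared groups only, and 0 to 6 without single libraries. For 10 mpk against 1 mpk in cortex, 5 became 1 with rescaling, 2 with the replicate block, 2 with the number range and 0 with depth, and 2 to 6 without single libraries. In medulla, the 1 gene called under enalapril was lost with rescaling (0), and 0 to 1 were called without single libraries. The 3 called under MK-8722 10 mpk in medulla became 1 with no filter and 0 with rescaling, the replicate block, depth or the compared groups only, and 0 to 5 without single libraries. The 10 mpk against 1 mpk comparison in medulla gave 0 to 1. Between tissues in obese vehicle, 3 became 0 with depth and 1 to 4 without single libraries. The cause was not tested. The share of all genes called moved as widely, in cortex under enalapril from 0.00736% to 34.9%. Under MK-8722 10 mpk against obese vehicle it ran from 3.16% to 38.3% in cortex and from 3.5% to 22.9% in medulla. For 10 mpk against 1 mpk it ran from 2.4% to 38.5% in cortex and from 0.563% to 11.3% in medulla. For obesity it ran from 33.8% to 65.7% in cortex and from 38.4% to 71.0% in medulla.

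Over the 6 genes, 0 called values changed sign; 91 of 1293 values called neither before nor after did. By the labels, same-numbered samples share only a replicate number, also in cortex MK-8722 10 mpk against obese vehicle, where their deviations correlated. The number range could not be fitted in medulla, and Atf3 fell under the filter in the lean tissue comparison with the compared groups only.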
